A study of Mus musculus with 2 samples.

Results

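Transcripts of 79 genes that encode chromatin modifiers, their readers and ATP-dependent remodellers were followed in mouse cells at day 0 (ES, the ES cell sample) and day 4 (EB, the EB cell sample). The rule that chose the genes uses their symbols and not their signals, although it was written with earlier results of these data known. Families such as Kdm, Hdac, Smarc, Chd, Kat, Prmt, Cbx and Pcgf were taken with all their named members, less Cbx7, from the 8102 genes that could be named on the array. Cbx7, the Polycomb gene left out by that rule, was 6.96-fold lower in EB, with signals of 6265 and 900. Each group is 1 RNA sample on 1 bead array. The labels give no strain, cell line, culture medium or feeder layer, and they do not spell out ES or EB, which in stem cell work usually stand for embryonic stem cells and for embryoid bodies, aggregates in which such cells differentiate into a mixture of types. No treatment or genetic change is named for either group. With 1 sample a group there was no replicate, so no p-value or standard deviation across samples exists, and every difference describes 2 arrays. In bulk RNA such as this, fewer cells of a type and less RNA per cell cannot be told apart.

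Chromatin modifiers add or remove small groups on histone tails and on DNA, readers bind those marks, and remodellers use ATP to move or evict nucleosomes. Histone acetylation accompanies active promoters and enhancers, while different methyl marks go with activity or with silencing, among them the marks of the Polycomb system. ES cells are known for an open chromatin state, and several of these enzymes, among them the LSD1 demethylase Kdm1a, the BAF remodeller and the Tet dioxygenases, are known to act in the exit from pluripotency.

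Of the 79 genes, 60 had a normalized signal at or above the signal floor in at least 1 array. The floor was 230.0 signal units, the lowest normalized EB signal of a probe with a detection score above 0.99. Signals of 54 genes were at or above it in both arrays, of 4 in ES alone and of 2 in EB alone, and the remaining 19 were below it in both. A gene above the floor in 1 array alone had to differ to some degree, so the counts over the 60 are descriptions. Differences are log2 of the EB signal over the ES signal, and a gene was called higher or lower when its difference reached 1 in either direction, which is 2-fold. By that rule 4 of the 60 genes differed (6.67%), against a background of 9.08% of the 3867 detected named genes. With Cbx7 they would be 5 of 61 (8.20%). The histone acetyltransferase genes Kat6b and Kat2b were lower in EB, and the remodeller gene Smarcd3 and the DNA-binding ARID gene Arid3b were higher. The share of 2 genes on each side (3.33%) compares with 3.72% of all detected genes on the higher side and 5.35% on the lower side.

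Kat6b encodes MORF, a histone acetyltransferase that works in a complex with BRPF and ING proteins. Its brightest probe (identifier scl0054169.1_231-S) read 3129 normalized signal units in ES and 508 in EB, 6.16-fold lower in EB. The log2 difference was -2.62 with a bead-level standard error of 0.09, an error that covers the beads within an array and no biological variation. Only 0.67% of all detected named genes had a larger absolute difference. A second probe of Kat6b read 515 and 254, a difference of -1.02, and the third was below the floor in both arrays. Both measurable probes were thus lower in EB by at least 2-fold, but they disagreed in size.

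Kat2b encodes PCAF, an acetyltransferase of the Gcn5 family. Its brightest probe read 401 in ES and 160 in EB, and as the EB signal lay below the floor the gene was at least 1.74-fold lower. The log2 difference of the measured signals was -1.32 (bead-level standard error 0.12). A second probe was at least 1.37-fold lower, with 315 in ES and an EB reading of 173 that was under the floor (-0.87 on the measured signals), and the third was below the floor in both arrays. The 2-fold call of Kat2b therefore rests on 1 of 3 probes and ended when signals were set to the floor (-0.80). It also ended when all 3 probes were averaged (-0.73), but that average takes in the third probe, at 0.01.

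Arid3b, a DNA-binding protein with an AT-rich interaction domain, read 965 units in ES and 2681 in EB. It was 2.78-fold higher in EB (log2 difference 1.47, bead-level standard error 0.08), and 3.72% of detected genes had a larger absolute difference. Smarcd3, the BAF60C subunit of the SWI/SNF (BAF) remodeller, known for its part in heart development, read 379 and 880, 2.32-fold higher (log2 difference 1.22, bead-level standard error 0.11). Both genes are represented by 1 probe, so neither has a second measurement on the array.

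**Figure D1:**
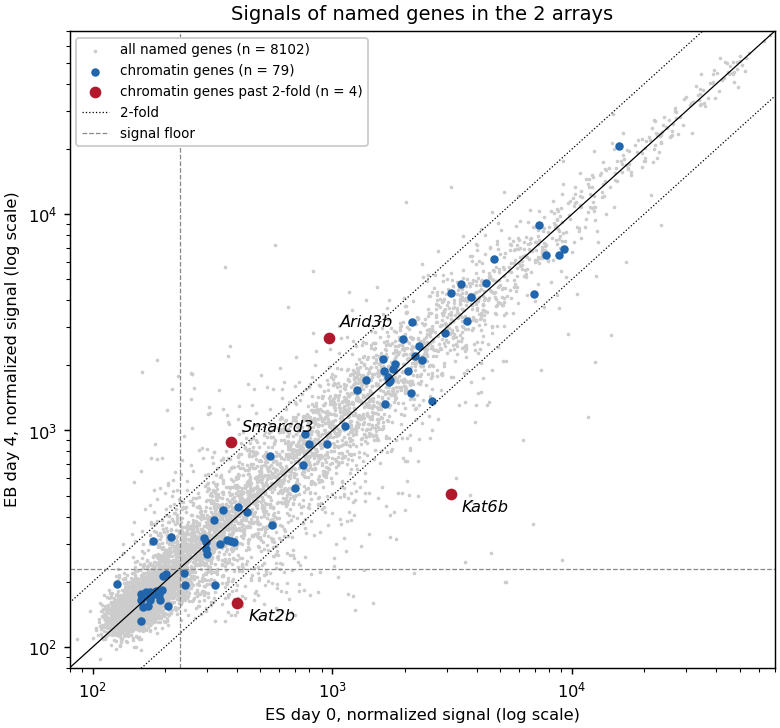
Normalized signal in ES day 0 (x axis) against EB day 4 (y axis), both in signal units on log scales, for all 8102 named genes (grey) and the 79 chromatin genes (blue, and red for the 4 past 2-fold). The solid line marks equal signals, dotted lines 2-fold differences and dashed lines the signal floor of 230.0 units. Kat6b and Kat2b lie below the lower dotted line, Arid3b and Smarcd3 above the upper one, and the other chromatin genes over the floor in either array lie between them.

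The sequence just before the transcription start of these 4 genes is shown because it lets the genes that differed be set beside the rest of the group, most of which have CpG-rich starts. The 250 bases before the first listed start are given 5′ to 3′ from RefSeq's GRCm38.p6 annotation, with each CG dinucleotide (CpG) in capitals. The windows are chr14:21499520-21499769 on the plus strand for Kat6b, chr17:53566721-53566970 on the plus strand for Kat2b, chr9:57836780-57837029 on the minus strand for Arid3b and chr5:24602003-24602252 on the minus strand for Smarcd3.
Kat6b: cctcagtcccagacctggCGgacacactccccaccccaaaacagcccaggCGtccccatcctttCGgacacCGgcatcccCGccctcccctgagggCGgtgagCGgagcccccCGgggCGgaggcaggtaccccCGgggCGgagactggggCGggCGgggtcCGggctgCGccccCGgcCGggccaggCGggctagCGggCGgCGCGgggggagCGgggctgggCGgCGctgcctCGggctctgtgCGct
Kat2b: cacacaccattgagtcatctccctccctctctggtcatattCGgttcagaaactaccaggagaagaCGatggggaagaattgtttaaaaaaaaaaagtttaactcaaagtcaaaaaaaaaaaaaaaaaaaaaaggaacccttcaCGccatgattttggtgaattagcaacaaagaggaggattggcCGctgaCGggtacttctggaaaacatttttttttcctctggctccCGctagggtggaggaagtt
Arid3b: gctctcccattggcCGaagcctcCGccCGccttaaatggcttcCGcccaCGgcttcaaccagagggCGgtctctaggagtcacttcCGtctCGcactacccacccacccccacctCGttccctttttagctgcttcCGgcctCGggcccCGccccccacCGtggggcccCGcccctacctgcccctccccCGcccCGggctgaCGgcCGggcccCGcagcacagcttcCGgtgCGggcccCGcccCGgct
Smarcd3: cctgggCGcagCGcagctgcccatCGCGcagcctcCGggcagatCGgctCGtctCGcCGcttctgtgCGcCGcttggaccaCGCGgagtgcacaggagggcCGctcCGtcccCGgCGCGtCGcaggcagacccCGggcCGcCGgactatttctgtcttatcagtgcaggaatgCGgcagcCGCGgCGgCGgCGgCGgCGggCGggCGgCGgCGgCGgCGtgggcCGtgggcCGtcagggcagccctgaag

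Kat6b held 27 CpGs in this window, Arid3b 23 and Smarcd3 38, with GC contents of 78.8%, 72.8% and 76.0%. Kat2b stood apart from them with 6 CpGs and a GC content of 40.8%, and its second listed start held 5. Promoter windows were found for 65 of the 79 genes and for 49 of the 60 detected ones. The 49 had a median of 18 CpGs (quartiles 12 and 26), against 17 (11 and 23) for the 3107 detected named genes with a window and 6 (2 and 16) for all 27025 genes with a window. A ratio of observed to expected CpG of at least 0.6, a usual mark of a CpG island, was found in 41 of the 49 (83.7%), in 73.4% of the detected named genes and in 34.5% of all genes. Kat2b, at 0.58, was among the 8 detected chromatin genes under 0.6, and so were the corepressor gene Ncor1 (0.24), the remodeller gene Smarcd2 (0.20) and Uhrf1 (0.45). The GC box GGGCGG, searched on both strands and overlapping a CpG by its letters, was present in 37 of the 49 (75.5%), in 61.8% of detected named genes and in 32.9% of all. The TATA box TATAAA, searched on both strands, was present in Smarcd2 alone among the 49 (2.04%), and in 5.95% and 13.0% of the larger sets. These matches are descriptions of the windows, and their relation to the signals was not tested.

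As a group the chromatin genes had a median difference near 0, as did all detected named genes. The median log2 difference of the 60 detected genes was -0.01 with quartiles of -0.23 and 0.29, beside a median of 0.06 and quartiles of -0.26 and 0.35 over all detected named genes. Differences were positive in 29 genes and negative in 31, and 55.3% of all detected genes were positive. Without Uhrf1bp1l, Hdac1-ps and Mbd3l2, which share a symbol prefix with the families but are not known as modifiers, 58 of 76 genes were detected and the median was 0.02. At the lower limit of 1.5-fold, 10 of the 60 (16.7%) differed, 4 higher and 6 lower, against 24.4% of all detected named genes, of which 12.4% were on the higher and 12% on the lower side. Both counts use the measured signals, also those below the floor. Tet2, Cbx1 and Cbx8, each below the floor in 1 array, are among the 10. With signals raised to the floor they gave -0.50, 0.49 and 0.42, inside 1.5-fold. Past 4-fold there was 1, Kat6b (1.67%), against 1.63% of all detected named genes. The other 50 genes (83.3%) lay within 1.5-fold, as did 75.6% of all detected genes. Bead-level standard errors of the detected chromatin genes ran from 0.06 to 0.17 with a median of 0.09, and 37 genes (61.7%) differed by more than 2 such errors, against 68.3% of all detected genes. A stricter guide is the spread between probes of a gene: over 447 named genes with at least 2 probes above the floor, the differences of the first and second probe differed with a standard deviation of 0.39. Of the 60 chromatin genes, 20 (33.3%) had an absolute difference above that value, against 40.4% of all detected genes. The 13 probe pairs of the chromatin genes had a standard deviation of 0.57, on which the widest gap, that of Kat6b (-2.62 and -1.02), weighs heavily. Their median absolute gap of 0.23 was close to the 0.19 of the 447 genes. Above that value were 10 of the 60 (16.7%), against 25.4% of all detected genes.

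**Figure D2:**
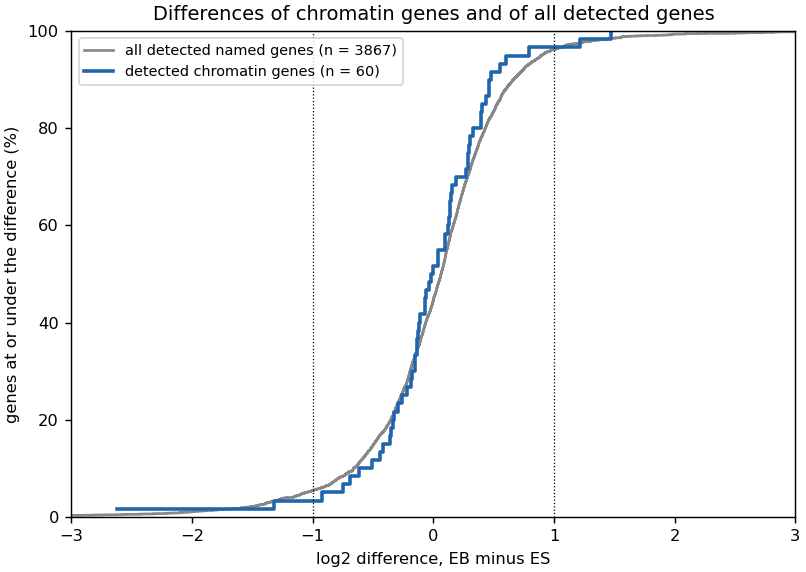
Cumulative share of genes (y axis, percent) at or under a log2 difference, EB minus ES (x axis), for the 60 detected chromatin genes (blue) and the 3867 detected named genes (grey); dotted lines mark 2-fold. The axis runs from -3 to 3 and leaves out 14 genes beyond it, none of them a chromatin gene. The quartiles of the chromatin genes (-0.23 and 0.29) lie inside those of all genes (-0.26 and 0.35).

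Among writers and readers of histone acetylation all 12 named genes were detected, and Kat6b and Kat2b were the 2 past 2-fold, both lower. Their median was -0.04. Kat2a, the Gcn5 enzyme most closely related to Kat2b, read 1817 in ES and 2022 in EB (0.15), so the probes of the 2 related genes differed in sign. Kat14, a subunit of the ATAC acetyltransferase complex, went from 1969 to 2659 (0.43). Ing5, a plant homeodomain reader found in complexes with MORF, gave -0.18 by its brightest probe while its second read 234 in EB and 144 in ES, under the floor, at least 1.02-fold higher, so its direction is not settled. Ing4, a reader in the HBO1 acetyltransferase complex, gave 0.33 and 0.21 with its 2 probes. Ing1, of the SIN3 deacetylase complex, gave -0.02, with a sign that turned without quantile normalization and with averaged probes. The second probe of Ing1, part of that average, was below the floor in both arrays.

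Of the bromodomain proteins of the BET class, which bind acetylated histones, Brd2 gave -0.07 and -0.30 with its 2 probes, and Brd3 was at 4731 in ES and 6215 in EB (0.39). Both stayed under 1.5-fold. Brd7, a subunit of the PBAF remodeller, gave 0.30, and Brd8, of the TIP60 acetyltransferase complex, gave -0.07.

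None of the 6 detected genes of deacetylases and corepressors passed 2-fold, but this family held the gene nearest to the limit. Ncor1, the nuclear receptor corepressor that serves as a platform for HDAC3, read 2596 in ES and 1370 in EB, 1.89-fold lower in EB (log2 difference -0.92, bead-level standard error 0.08). In the series value table, where low signals are stretched, 6 chromatin genes besides the 4 passed 2-fold, among them Ncor1 (-1.02), and the others are given with their families. Hdac3, the deacetylase bound by that corepressor, read 2155 and 3166, a difference of 0.55. The 2 partners thus had differences of opposite sign. Sin3a, the scaffold of another deacetylase complex, was at 2118 and 1491 (-0.51). Sirt7, an NAD-dependent deacylase of the nucleolus, gave 0.04, and Sin3b was below the floor in both arrays. Hdac1-ps, a pseudogene of Hdac1, gave -0.16. Its probe may share sequence with Hdac1, and the signals of the 2 could not be told apart here.

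Of 19 remodeller and ARID genes 13 were detected, and Arid3b and Smarcd3 were the 2 past 2-fold, both higher. The other 11 had absolute differences of at most 0.42. Smarcd2, the alternative subunit to Smarcd3 in BAF complexes, read 3645 in ES and 3206 in EB (-0.19). Smarcc1 and Smarcc2, core subunits of the same complexes, gave 0.19 and 0.27, and a second probe of Smarcc1 gave -0.12. Arid1a, the defining subunit of canonical BAF, was at 9237 and 6897 (-0.42), and its second probe gave -0.37. Arid2, which defines PBAF, gave 0.10, and its second probe was below the floor in both arrays.

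Remodellers outside the SWI/SNF class stayed under 1.5-fold. Smarca5, the ISWI ATPase, had a log2 difference of -0.29, and Baz1a and Baz2a, both partner subunits of ISWI enzymes, gave -0.22 and -0.35. Chd4, the ATPase of the NuRD complex, gave 0.14 by its brightest probe and -0.40 by its second, so its probes disagreed in sign and their mean was negative. Chd2 gave -0.36 and Chd8 gave -0.14. Arid4a, Arid5a, Arid5b, Chd3, Chd5 and Chd6 were below the floor in both arrays.

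**Figure D3:**
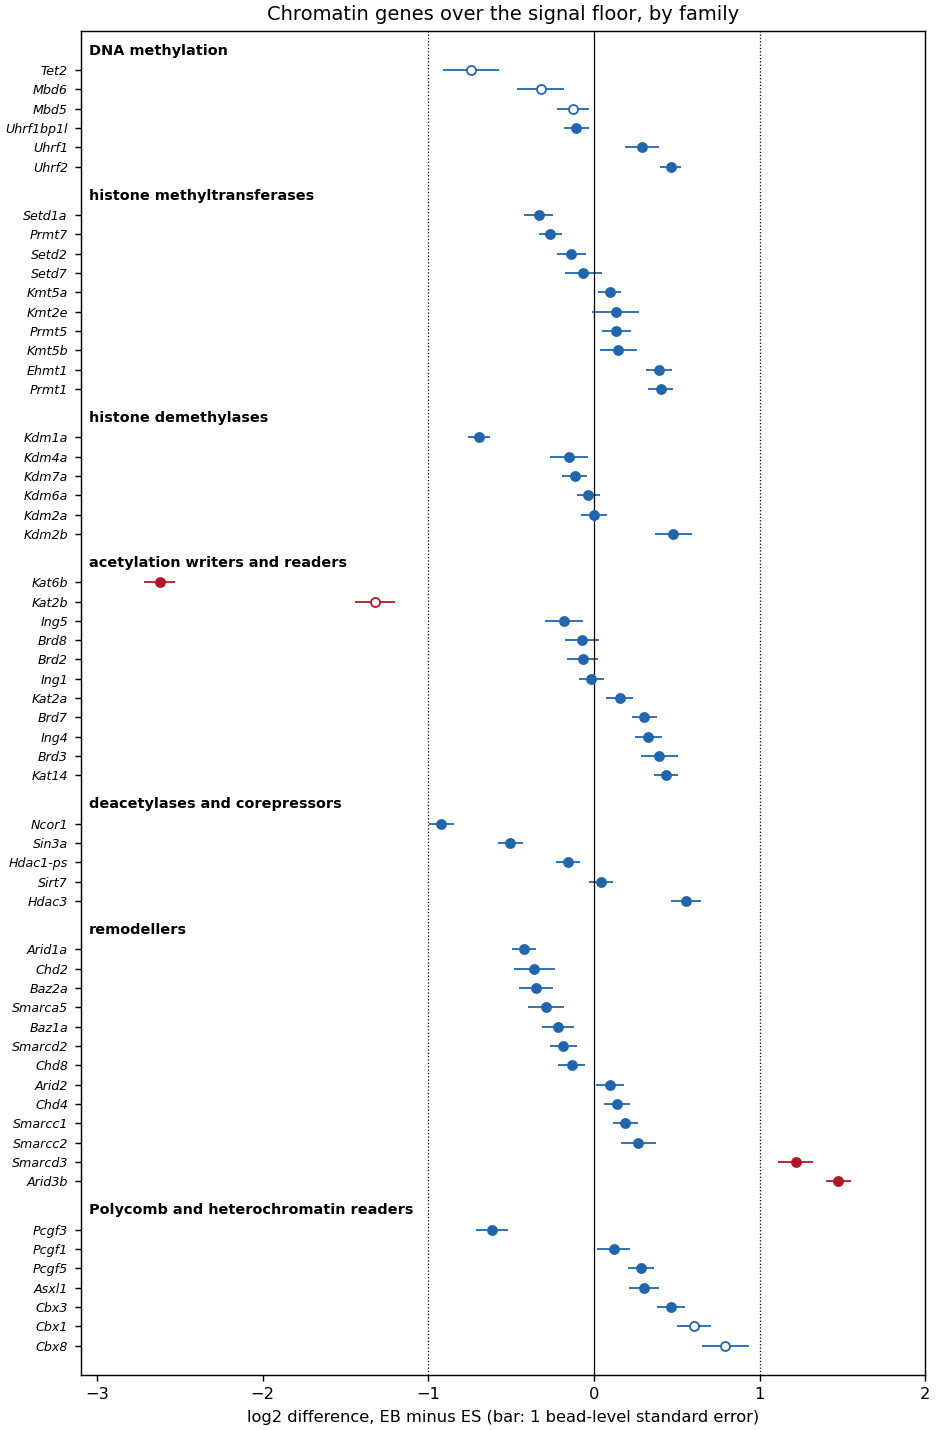
Log2 difference, EB minus ES, of 58 of the 60 detected chromatin genes (x axis), 1 gene a row, in 7 families ordered within each by the difference. Bars are 1 bead-level standard error, red marks a difference past 2-fold (dotted lines), and open circles mark genes below the floor in 1 array. Kat6b lies farthest to the left at -2.62 and Arid3b farthest to the right at 1.47, while 50 of all 60 lie within 1.5-fold.

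Histone methyltransferases and their arginine-directed relatives had the narrowest range from lowest to highest difference among the 7 families, although the demethylases had a narrower interquartile range (0.13 against 0.26). None of the 10 detected genes of 13 passed 1.5-fold, and their differences ran from -0.33 to 0.40 with a median of 0.11. Prmt1, the main enzyme of asymmetric arginine dimethylation, read 15656 in ES and 20700 in EB (0.40). Prmt5, which makes symmetric dimethylarginine, gave 0.13, and Prmt7 gave -0.26 and -0.20 with its 2 probes. Setd1a, a methyltransferase of active promoters, gave -0.33, and Setd2, which methylates histone H3 in gene bodies, gave -0.14. Ehmt1, a partner enzyme in the methylation of histone H3 for gene silencing, was at 1623 and 2130 (0.39), and its second probe was below the floor. Kmt5a and Kmt5b, which methylate histone H4, gave 0.09 and 0.15, with further probes of Kmt5a at 0.15 and -0.07, Kmt2e gave 0.13 and Setd7 gave -0.06. Prmt8, Setd3 and Suv39h2 were below the floor in both arrays.

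Among histone demethylases none of 6 detected genes of 9 passed 2-fold. Kdm1a, the LSD1 enzyme that works with the CoREST and NuRD complexes, read 6940 in ES and 4286 in EB, 1.62-fold lower in EB (log2 difference -0.70, bead-level standard error 0.07). Kdm2b, which brings a variant Polycomb complex to CpG islands, had positive differences with all 3 of its probes (0.48, 0.22 and 0.10). Its relative Kdm2a had nearly equal signals of 2208 and 2206, and Kdm6a, the UTX enzyme that removes the Polycomb methyl mark, had signals of 1717 and 1676. The differences of these last 2 genes turned in sign without quantile normalization. Kdm4a gave -0.15 and Kdm7a gave -0.12, and the second probe of each was below the floor in both arrays. With that probe averaged in, the value of Kdm7a was positive (0.07). Kdm1b, Kdm5c and Kdm5d were below the floor in both arrays.

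The DNA methylation family had 6 detected genes of 8, and none passed 2-fold. Uhrf1, which guides maintenance methylation to newly copied DNA, read 7280 in ES and 8893 in EB (0.29), and its second probe was below the floor in both arrays. Uhrf2 was at 3454 and 4757 (0.46), and its second probe gave 0.34. Tet2, a dioxygenase that oxidises methylcytosine, read 324 in ES and 194 in EB, under the floor, at least 1.41-fold lower, and the measured signals differed by -0.75 on the log2 scale (bead-level standard error 0.17). Mbd5 (at least 1.04-fold lower) and Mbd6 (at least 1.05-fold lower) were also above the floor in ES alone, by a small margin. In the series value table Tet2 (-2.55) and Mbd6 (-1.30) passed 2-fold. Uhrf1bp1l, which the symbol rule took in although it is known as a lipid transfer protein and not a chromatin protein, gave -0.11. Tet3 and Mbd3l2 were below the floor in both arrays. Dnmt1, Dnmt3a, Dnmt3b, Dnmt3l and Tet1, with Ezh2, Suz12, Eed, Hdac1, Hdac2 and Smarca4 of the other families, could not be named by this reading of the identifiers and were not analysed here.

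None of the 7 detected genes of Polycomb and heterochromatin readers passed 2-fold. Of the 5 above the floor in both arrays 4 had a positive difference. Over all named genes detected in at least 1 array, a wider set, 55.3% were positive. The other 2 of the family, Cbx8 and Cbx1, were above the floor in EB alone, which fixes their sign. Cbx8 passed 2-fold with background correction (1.08) and in the series value table (2.79), where Cbx1 (1.99) and Pcgf3 (-1.05) passed it too. Cbx8, a Polycomb chromodomain protein, read 308 in EB and 178 in ES, under the floor, at least 1.34-fold higher. Cbx1, the heterochromatin protein HP1 beta, read 323 in EB and 213 in ES, also under it, at least 1.41-fold higher. Cbx3, HP1 gamma, was at 3132 in ES and 4314 in EB (0.46). Its second probe was below the floor in both arrays, and with that probe averaged in the value was 0.06. Cbx5, HP1 alpha, was below the floor in both arrays. Among the subunits that set the type of Polycomb complex, Pcgf3 was at 559 and 365 (-0.61, 1.53-fold lower), while Pcgf5, with which it shares a complex type, was at 1264 and 1539 (0.28), and Pcgf1, the partner of Kdm2b, gave 0.12. Asxl1, a cofactor of the histone H2A deubiquitinase BAP1, gave 0.30, and Asxl2, Asxl3 and Phc3 were below the floor in both arrays.

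The 19 genes below the floor in both arrays had normalized signals from 126 to 218, so no ratio is given for them. A low signal may come from a weak probe as well as from a scarce transcript. For that reason signals of different genes were not ranked against each other.

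Probes of the same gene served as the one internal repeat. Of the 79 genes 23 had more than 1 probe, and 13 had at least 2 above the floor. Over these 13 the differences of the first and second probe correlated at r = 0.77 (Spearman 0.69), had the same sign in 10 and differed with a standard deviation of 0.57. Kat6b, the most negative of the 13 by both probes and with the widest gap, weighs on r and on the standard deviation. The probes share an array and a labelling, and the genes are not replicates, so the correlation is a description. The 3 genes whose first and second probes disagreed in sign were Chd4, Ing5 and Smarcc1, all with a brightest probe under 1.5-fold. Of the 27 further probes 12 were below the floor in both arrays.

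**Figure D4:**
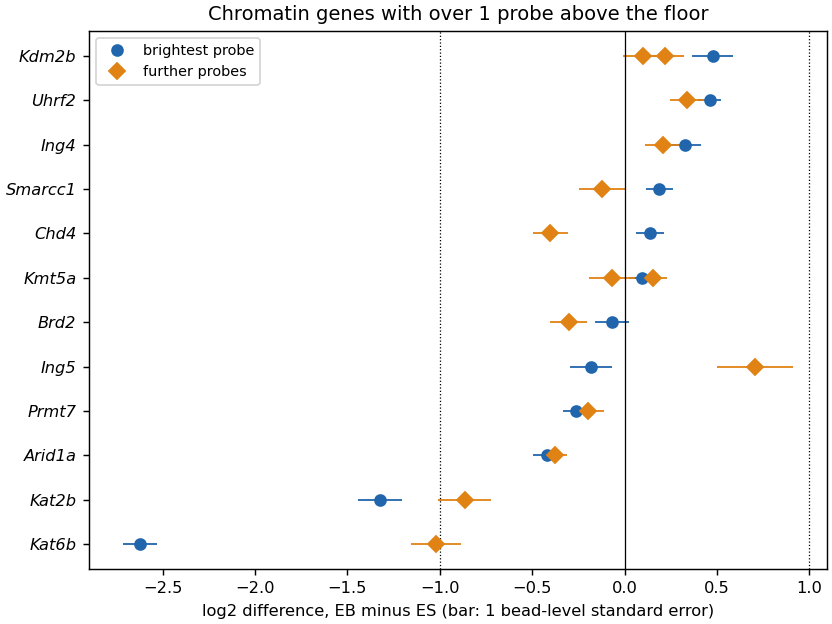
Log2 difference, EB minus ES (x axis), of each probe above the floor for 12 of the 13 chromatin genes with at least 2 such probes. Blue circles are the brightest probe of a gene, orange diamonds its further probes, bars 1 bead-level standard error and dotted lines 2-fold. Kat6b shows the widest gap on the lower side (-2.62 and -1.02), and the probes of Chd4, Ing5, Kmt5a and Smarcc1 fall on both sides of 0.

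The call of the 4 genes was set against other ways of making the values. Kat6b, Arid3b and Smarcd3 stayed past 2-fold without normalization, with scaling to the median, with background correction and in the series value table. The first 2 of these settings are close, as the array medians were 173.9 and 173.3. Kat6b also stayed past 2-fold with averaged probes, which could not change Arid3b and Smarcd3, with 1 probe each. Raising dim signals to the floor could not change any of these genes, which were above it in both arrays. Kat6b ranged from -1.37 with averaged probes to -3.18 in the series value table, Arid3b from 1.47 to 1.68 and Smarcd3 from 1.20 to 1.83. Kat2b kept its negative sign, between -0.73 and -4.03. The averages took in every probe of a gene, also those below the floor in both arrays.

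**Figure D5:**
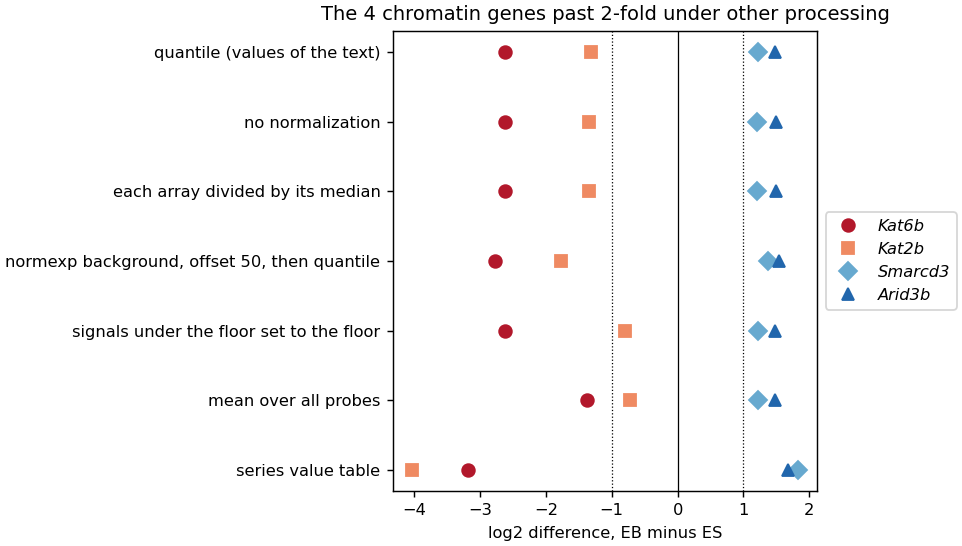
Log2 difference, EB minus ES (x axis), of Kat6b, Kat2b, Smarcd3 and Arid3b under 7 ways of processing the same 2 arrays (rows); dotted lines mark 2-fold. The signs hold in every row. Kat2b alone falls inside the 2-fold lines, at -0.80 with dim signals raised to the floor and at -0.73 with averaged probes. The averages include probes below the floor. Raising signals to the floor could not move Kat6b, Smarcd3 or Arid3b, and averaging could not move Smarcd3 or Arid3b.

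Other chromatin genes, outside the symbol families, are given for comparison. Of a list of 143 such genes 72 were named and 54 detected. Of these 4 were lower in EB past 2-fold and 0 higher (7.41% in all, against the background of 9.08%), with a median of 0.01. Dppa3, a protector of DNA methylation in the early embryo that is also a pluripotency marker, was at least 6.42-fold lower. Hspbap1, a protein with a jumonji-type domain, went from 3584 to 1351 (2.65-fold lower). Mtf2, a cofactor that brings Polycomb repressive complex to CpG islands, went from 10452 to 4273 (2.45-fold lower), and Atf7ip, a partner of the methyltransferase SETDB1, from 2370 to 1079 (2.20-fold lower). Ash2l, a core subunit shared by the methyltransferase complexes of active promoters, was at 1724 and 923 (-0.90). Among the genes above the floor in both arrays Nsd2, a methyltransferase of histone H3, had the largest positive difference, at 263 and 384 (0.55).

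Marker lists of each cell type were read in the 2 arrays. The lists were drawn up with earlier results of these data known, so their counts are descriptions and no check of the labels. Sums of signals below count every named marker, also those below the floor, with no background subtracted. Of 12 named markers of undifferentiated ES cells 11 were lower in EB past 2-fold. The summed signal of the 12 was 53586 in ES and 5513 in EB, of which 4376 in EB came from genes above the floor. All 7 named germ layer markers, among them Eomes, Lhx1 and Otx2, were higher, with sums of 1652 and 10298. Of the sum in ES, 855 came from genes above the floor. Of 9 named markers of embryonic fibroblasts, which can be feeder cells, 4 were above the floor: Col1a1 was 2.58-fold lower and Fbln2 6.04-fold higher, Acta2 gave -0.79 and Col6a1 gave 0.07. Col1a2, Col3a1, Dcn, Postn and S100a4 were below the floor in both arrays. The summed fibroblast signal was 4522 in ES and 4531 in EB, and 3699 and 3782 over the genes above the floor. The part of any shift in cell make-up in the chromatin gene differences was not tested.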

How the data were processed

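Biotin-labelled RNA of 1 ES and 1 EB sample was hybridised to 1 bead array each (median of 38 and 37 beads a probe). Per the file headers the authors exported mean bead intensity with BeadStudio 2.3.41 and normalization set to none. The deposited bead spread, in signal units, fell with the deposited bead count (slopes of -0.44 and -0.47 on log scales) and was read as a standard error. A deposited detection score was used for EB. BeadStudio 2, RMA and limma are listed, with no role, per the submitters' processing notes. A deposited table of processed intensity, on a linear scale with medians of 16.7 and 16.7 and a making not given in the sources, served as an alternative.

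The 2 arrays were brought to 1 distribution by quantile normalization, with no background subtraction, before log2 was taken; unsubtracted background shrinks differences of dim probes. Of 46643 probes 9796 (21.0%) were named by reading zero-padded numbers of at least 10000 in their identifiers as NCBI Gene numbers, of which 82.6% were found in RefSeq's GRCm38.p6 gene table. The probe with the highest mean log2 signal stood for a gene. Where the dimmer signal was below the floor, a ratio is given against the floor as "at least". Every detected member but 2, which are not reported here, is named by family, and of the other list those past 2-fold. Ash2l and Nsd2 were singled out after their values were seen. Members and lists were chosen with earlier results of these data known. Without replicates no test was run, and the normalization was tested on simulated data. Python 3.11.15, R 4.3.3 and limma 3.58.1 (normexp, offset 50) were used.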

Additional observations from a re-analysis of the deposited data

How the results depend on the processing

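No paired analysis was possible because ES and EB are 1 sample each, and no sample could be left out. The count of 4 chromatin genes past 2-fold stayed between 3 and 5 under 9 other choices of normalization, background, floor, detection, probe and bead error. One of these, detection by score in EB or by the array median in ES, was chosen after the data were seen. The series value table gave 10 (4 higher, 6 lower), a 1.5-fold limit 10 and a log2 limit of 2 gave 1. For all named genes the count of 351 (144 higher, 207 lower) became 995 with the series value table (527 and 468), 942 at 1.5-fold and 63 at a log2 limit of 2. For the other chromatin genes the count of 4 (0 higher, 4 lower) became 13 with the series value table (7 and 6), 9 at 1.5-fold and 1 at a log2 limit of 2, and normexp background gave 6 (2 and 4). A lower or higher limit changes a count by construction, and the cause of the larger counts in the series value table was not tested. The median over the chromatin genes lay between -0.03 and 0.03 under 9 other settings. Of 60 detected genes 53 kept their sign under those settings. Signs turned only without normalization, with median scaling and with averaged probes, in 4 genes each. Several settings could not turn a sign. The detection settings leave a gene's value unchanged, and raising signals to the floor can only shrink a difference. Normexp followed by quantile normalization keeps the ranks within each array. For the chromatin gene probes, the series value table rose with the normalized signal in the same way in both arrays, so it kept signs too. A signal of 1707.7 had the value 1525.11 both for Sirt7 in ES and for Brd7 in EB. Signal over background limits the dim genes: the 19 below the floor could not show a difference.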
